A study of Homo sapiens with 8 samples.

Results

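The 10 transcription factors described here regulate the step from B cell to plasma cell. They were listed by symbol (IRF4, PRDM1, POU2AF1, IKZF1, IKZF3, PAX5, BCL6, EBF1, BACH2 and SPIB) and are 10 of the 63677 genes counted in each library. RNA was sequenced from the multiple myeloma (MM) cell lines JJN3 and H929, each grown for 24 h with THZ1 at 50 nM or with DMSO, the vehicle. Each of the 4 groups held 2 libraries, which makes 8. THZ1 is a covalent inhibitor of CDK7, a kinase that phosphorylates RNA polymerase II, and the study used it to find genes whose expression in myeloma cells depends on that kinase. Each line stands for 1 tumour, and the labels name no engineered change. The design text of the series speaks of harvest 24 h after knockdown, and its treatment protocol of 24 h after treatment. The latter was used here.

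Plasma cells arise when an activated B cell replaces one transcription factor program with another. PAX5 and EBF1 hold B cell identity, SPIB assists B cell receptor signalling, and BCL6 and BACH2 hold back plasma cell differentiation in germinal centre and activated B cells. PRDM1 (Blimp-1) represses that program, and IRF4 drives plasma cell differentiation and is needed for the survival of myeloma cells. POU2AF1 is the coactivator of the octamer-binding factors in B cells and plasma cells. The Ikaros factors IKZF1 and IKZF3 are the proteins that lenalidomide directs to the ubiquitin ligase CRL4-CRBN in myeloma.

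The labels were checked against lists of marker genes, which were chosen with earlier results of these data known. Libraries summed to between 17476443 and 19194371 counts. Of 12 plasma cell markers, 1 to 3 had 3 counts or fewer in any library, and SDC1 (CD138) had between 812 and 31513 counts, so plasma cell genes were read in every group. The libraries labelled H929 THZ1 stood apart from those labelled H929 DMSO in genes that mark other lineages. The epithelial gene EPCAM had between 1195 and 2391 counts in the JJN3 and H929 DMSO libraries, but 1 and 6 counts in the H929 THZ1 libraries. The T cell gene CD3E went from 15 and 26 counts to 640 and 650 between the same labels. The other T and NK cell markers stayed at 10 counts or fewer. CD3D went from 1 and 4 counts to 0 and 0, CD2 from 2 and 2 to 6 and 6, and NKG7 from 1 and 2 to 10 and 5. Of 14 markers of other cell types, 3 had enough counts to be tested between these labels. The summed level of the 12 plasma cell markers was 2785 and 2991 CPM (counts scaled to library size) under the H929 DMSO label and 10608 and 10506 CPM under the H929 THZ1 label, and in JJN3 it was between 3189 and 3393 CPM with either treatment. Most of the JJN3 sum was IGJ, the joining chain of secreted antibodies, and without that gene, an alternative chosen after seeing the data, the sum was 1125 and 1178 CPM with DMSO and 723 and 728 CPM with THZ1. For the libraries labelled H929, an effect of THZ1 and a difference in the source of the cells cannot be told apart. JJN3 therefore carries the comparison of THZ1 with DMSO, and the values for the H929 labels are given as differences between labels. In bulk RNA, fewer cells of a type and less RNA per cell cannot be told apart either.

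**Figure D1:**
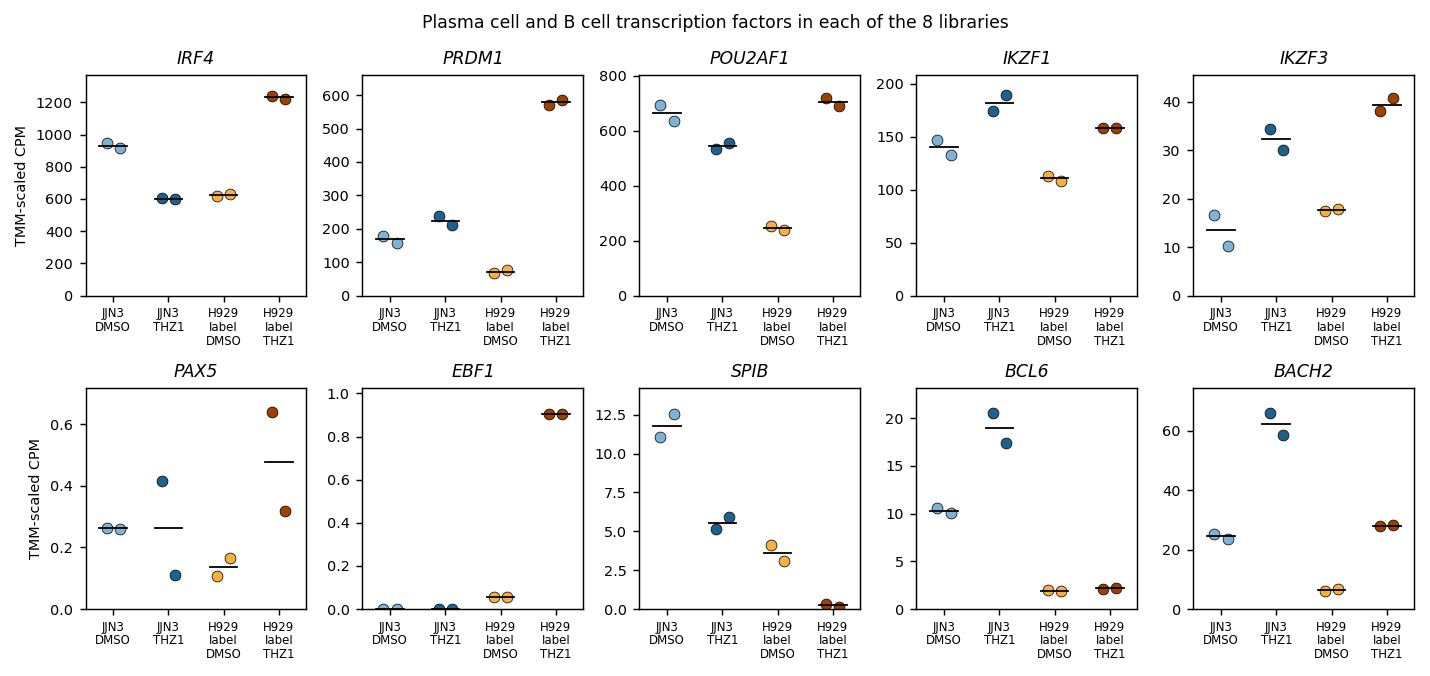
Level of each of the 10 transcription factors in the 8 libraries, in TMM-scaled CPM on linear axes that start at 0. Points are libraries and horizontal lines are the means of 2 libraries. IRF4 is lower with THZ1 in JJN3 and higher under the THZ1 label of H929, whereas BACH2 is higher under THZ1 in both.

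IRF4 was the most abundant of the 10 transcripts in every group when counts were divided by exon length. In JJN3 with DMSO its level was 156 ± 3.16 CPM per kb of merged exons (SD, n = 2), followed by POU2AF1 at 95.1 ± 5.74, PRDM1 at 24.95 ± 1.97 and IKZF1 at 12.8 ± 0.93. A second tier held SPIB at 2.76 ± 0.25, BACH2 at 2.25 ± 0.12, BCL6 at 1.73 ± 0.069 and IKZF3 at 1.33 ± 0.45 CPM per kb. The B cell identity factors were nearly absent. PAX5 reached 0.027 CPM per kb, and EBF1 had 0 counts in all 4 JJN3 libraries, which allows up to 0.156 to 0.172 CPM (3 counts) in a library, as counting error only. With THZ1 the first 4 kept their order in JJN3, at 101 ± 1.24 CPM per kb for IRF4, 77.8 ± 2.51 for POU2AF1, 33.3 ± 2.72 for PRDM1 and 16.6 ± 0.99 for IKZF1. Below them SPIB, at 1.29 ± 0.12, moved from rank 5 to rank 8, under BACH2 at 5.74 ± 0.47, BCL6 at 3.19 ± 0.37 and IKZF3 at 3.18 ± 0.31 CPM per kb. The library values of BCL6 and IKZF3 overlapped there, as did those of PRDM1 and IKZF1 under the H929 DMSO label and those of SPIB and PAX5 under the H929 THZ1 label. The libraries of all other neighbours in the order of a group did not overlap. Some of these gaps were smaller than the spread of the libraries, as between BCL6 and IKZF3 in JJN3 with DMSO and between SPIB and BACH2 under the H929 DMSO label, and PAX5 and EBF1 were ordered on few counts.

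**Figure D2:**
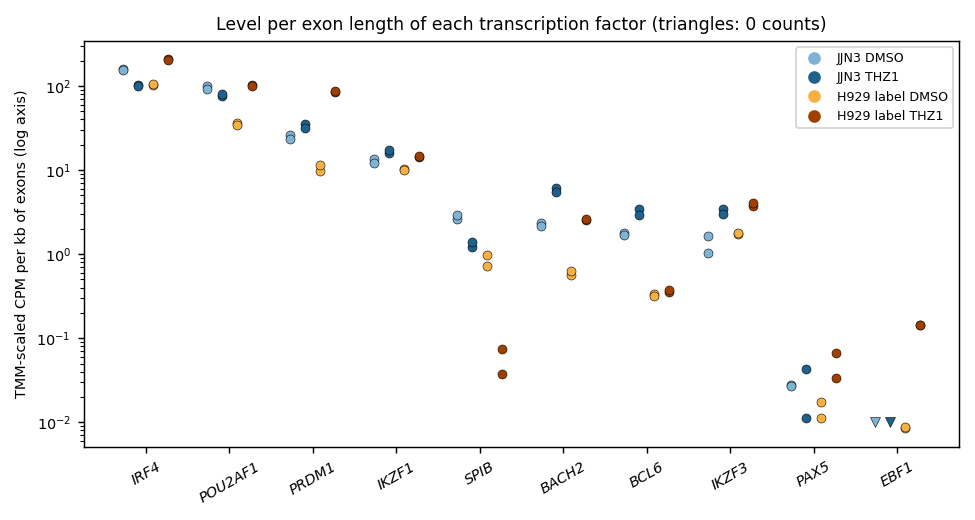
Level of each transcription factor per kb of merged exons, in TMM-scaled CPM per kb on a log axis, with 1 point per library. The genes are ordered by their mean in JJN3 with DMSO. Triangles mark 0 counts, which only EBF1 in JJN3 had, and IRF4 is the highest in each of the 4 groups.

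The promoters of IRF4 and SPIB, which fell in JJN3 with THZ1, and of BCL6 and BACH2, which rose, are shown to set their sequences beside the values that follow. Each line gives the 100 bases before the annotated transcription start in a RefSeq promoter window (build GRCh38.p14). They run 5′ to 3′ on the strand of the gene, with the TATA box letters TATAAA in capitals.
IRF4, chr6:391652-391751, plus strand: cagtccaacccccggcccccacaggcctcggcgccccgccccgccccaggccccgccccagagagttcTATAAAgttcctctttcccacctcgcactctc
SPIB, chr19:50418838-50418937, plus strand: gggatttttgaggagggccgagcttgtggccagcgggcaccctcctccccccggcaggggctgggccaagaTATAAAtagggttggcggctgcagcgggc
BACH2, chr6:90296844-90296943, minus strand: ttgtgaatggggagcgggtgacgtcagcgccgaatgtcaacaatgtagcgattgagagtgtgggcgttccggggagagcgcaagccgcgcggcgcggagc
BCL6, first window, chr3:187745469-187745568, minus strand: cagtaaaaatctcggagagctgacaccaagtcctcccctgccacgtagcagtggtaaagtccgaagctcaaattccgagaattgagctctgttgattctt
BCL6, second window, chr3:187736502-187736601, minus strand: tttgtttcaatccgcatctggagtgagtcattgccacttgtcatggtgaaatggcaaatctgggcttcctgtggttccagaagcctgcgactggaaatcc

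The TATA box letters begin 32 bases before the start in IRF4 and 29 bases before it in SPIB. Searched on both strands over the 250 bases before the start, they were not in the window of BACH2 or in either window of BCL6, and 10.7% of 35116 RefSeq windows hold them. Among the other members they were in 1 of the 3 windows of IKZF1 and in that of PAX5, further from the start (202 to 238 bases), and not in those of PRDM1 and EBF1. In all, 8 of the 10 members matched 12 windows, and POU2AF1 and IKZF3 had no entry. The window of IRF4 had a GC content of 76.0%, with 28 CpG dinucleotides. That of BACH2 had 73.6% with 40 and that of SPIB 66.4% with 7, against a median of 58.0% and 11 over all windows. The octamer ATGCAAAT was in none of the 12 windows and in 1.63% of all. The Ikaros core GGGAA, in 59.0% of all windows, was in at least 1 window of IRF4, PRDM1, IKZF1, PAX5, EBF1 and BCL6. These are matches of letters, which were chosen with the expression values known. The genes whose promoters are shown were picked by their change in JJN3, and a link between the letters and that change was not tested.

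In JJN3, IRF4 and SPIB were lower with THZ1 than with DMSO, and IKZF3, BCL6 and BACH2 were higher. Counts are scaled between libraries, so a fall or a rise here is relative to the other RNA of a library. Whether the amount of RNA per cell changed was not tested. PRDM1, IKZF1 and POU2AF1 did not reach the calling limits. Genes were tested with edgeR's quasi-likelihood test, adjusted by Benjamini-Hochberg over the 13984 genes that passed the filter on low counts, and a call needed both an adjusted p below 0.05 and a log2 fold change of more than 0.5 in size. Of the 8 members tested, 2 were called lower, where 21.3% of all genes tested were, and 3 were called higher, where 20.6% were. On 8 genes, neither count is read as a result about the members as a group. The median log2 fold change was 0.47 over the 8 members and 0.00 over all genes tested. PAX5 and EBF1 did not pass the filter. Nothing in the labels says that the libraries came from separate cultures, so p-values measure the spread between these libraries, which may be technical.

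IRF4 (ENSG00000137265, chr6:391739-411443 on GRCh37, plus strand) was read 17932 and 17609 times with DMSO in JJN3, and 10249 and 10949 times with THZ1. Both THZ1 libraries lay far below both DMSO libraries. The group means were 931 ± 18.8 and 602 ± 7.37 TMM-scaled CPM (SD, n = 2). The change was -0.55 on the log2 scale (SE 0.093, edgeR adjusted p = 0.00041), or 1.47-fold lower, just beyond the limit on the fold. The fit scales the 4 JJN3 libraries after the filter, whereas the CPM above were scaled over all 8 libraries before it. Over the alternatives the change lay between -0.66 and -0.53. PRDM1 (ENSG00000057657, chr6:106441338-106557814, plus strand), the repressor of the B cell program, had 3377 and 3051 counts with DMSO, against 4011 and 3883 with THZ1. Its groups did not overlap, but the log2 change of 0.49 (SE 0.092, edgeR adjusted p = 0.00084) stayed just inside the limit on the fold. It passed that limit with DESeq2 and its size factors (0.51 in each) and with a filter of 1 CPM in 2 libraries (0.51). Leaving out a library gave changes between 0.40 and 0.58, on both sides of the limit. POU2AF1 (ENSG00000110777, chr11:111222980-111326355, minus strand) had 13167 and 12216 counts against 8971 and 10206, a log2 change of -0.21 (SE 0.092, edgeR adjusted p = 0.068). Of IRF4, PRDM1 and POU2AF1, IRF4 alone passed both limits in JJN3 by the edgeR test with all libraries in.

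The paralogous Ikaros factors differed in size of change. IKZF3 (Aiolos, ENSG00000161405, chr17:37913971-38020565, minus strand) had 317 and 198 counts with DMSO, against 581 and 551 with THZ1, and rose by 1.33 on the log2 scale (SE 0.18, edgeR adjusted p = 8.88e-05). Relative to their mean, its DMSO libraries lay further apart than those of any other member, and leaving out a library gave changes between 1.01 and 1.70. IKZF1 (Ikaros, ENSG00000185811, chr7:50343664-50472799, plus strand) had 2794 and 2547 counts against 2930 and 3466, a log2 change of 0.45 (SE 0.085, edgeR adjusted p = 0.00092) that was inside the limit on the fold. It was beyond that limit without the first DMSO library (0.51) or the first THZ1 library (0.50). Without the first DMSO library PRDM1 (0.56) was beyond it too.

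BCL6 and BACH2, the repressors that oppose plasma cell differentiation, both rose in JJN3. BACH2 (ENSG00000112182, chr6:90636247-91006562, minus strand) had 482 and 452 counts with DMSO, against 1113 and 1076 with THZ1. Its log2 change of 1.42 (SE 0.099, edgeR adjusted p = 1.33e-06), or 2.68-fold, was the largest among the members in JJN3 with all libraries in. Without the first JJN3 DMSO library IKZF3 was at 1.70. BCL6 (ENSG00000113916, chr3:187439165-187463513, minus strand) had 201 and 192 counts against 346 and 319, a rise of 0.96 (SE 0.135, edgeR adjusted p = 0.000126). These levels remained low next to IRF4: with THZ1, BACH2 was at 5.74 and IRF4 at 101 CPM per kb.

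SPIB (ENSG00000269404, chr19:50922195-50934571, plus strand), an ETS factor that pairs with IRF4 on DNA, had 210 and 241 counts with DMSO in JJN3, against 87 and 108 with THZ1. It fell by 1.02 on the log2 scale (SE 0.164, edgeR adjusted p = 0.000304), or 2.02-fold. PAX5 (ENSG00000196092, chr9:36833266-37034265, minus strand) had 5 counts in each DMSO library, against 7 and 2 with THZ1. The ratio of CPM was 0.958, with a 95% counting interval of 0.344 to 2.62, so no difference was detectable at this depth. EBF1 (ENSG00000164330, chr5:158122928-158526924, minus strand) had 0 counts in each JJN3 library. Whether the counting used strand is not given in the sources used here, so reads of antisense genes that overlap a member cannot be told from its own.

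Between the libraries labelled H929 THZ1 and H929 DMSO, the plasma cell factors were higher and SPIB was near 0. Of 9 members tested, 6 were called higher, where 33.1% of the 14863 genes tested were, and 1 was called lower, where 32.6% were. EBF1 is among the 6, and SPIB is the member called lower. Each passed the filter only through the label in which it was high. The median log2 fold change was 1.14 over the members tested and 0.01 over all genes tested.

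**Figure D3:**
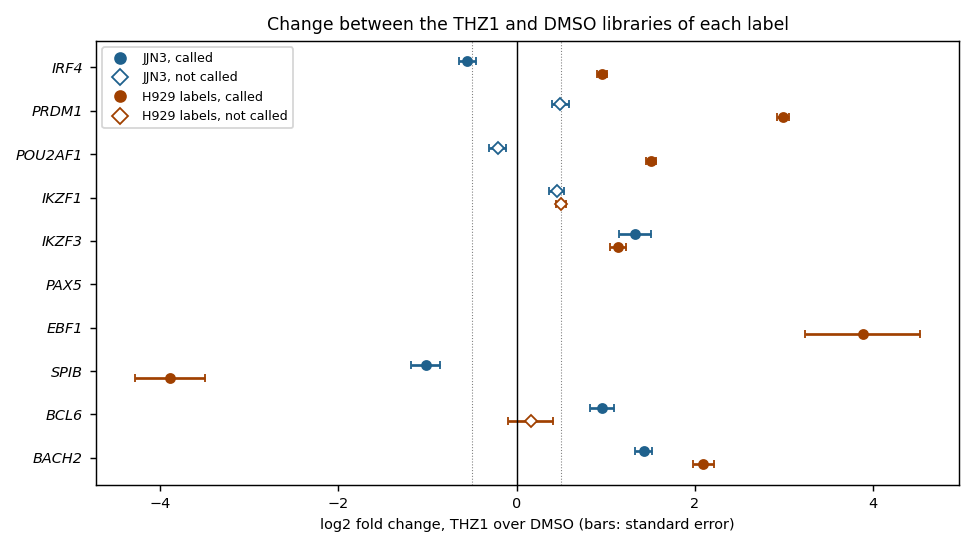
Log2 fold change of each transcription factor, THZ1 over DMSO, in JJN3 (blue) and between the H929 labels (brown), with standard errors from edgeR. Filled circles passed an adjusted p of 0.05 and the limits of 0.5 drawn as dotted lines, open diamonds did not, and genes without a point were not tested. IRF4 lies at -0.55 in JJN3 and at 0.96 between the H929 labels.

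The counts of PRDM1 were 1241 and 1404 under the H929 DMSO label, against 10725 and 11026 with THZ1. That was a log2 difference of 2.99 (SE 0.068, edgeR adjusted p = 2.83e-15), or 7.96-fold. IRF4 had 11544 and 11503 counts against 23269 and 22981, a difference of 0.96 (SE 0.056, edgeR adjusted p = 1.95e-10). Both genes were thus higher in 2 of 2 libraries, where in JJN3 the THZ1 libraries were lower for IRF4. POU2AF1 went the same way as PRDM1, with 4712 and 4315 counts against 13543 and 13006, or 1.51 on the log2 scale (SE 0.056, edgeR adjusted p = 6.77e-13). Among the Ikaros factors, IKZF3 had 328 and 324 counts against 717 and 766, a log2 difference of 1.14 (SE 0.087, edgeR adjusted p = 5.05e-09). IKZF1 had 2105 and 1972 counts against 2967 and 2979, and its difference of 0.499 just missed the limit on the fold. It passed under 7 of the alternatives listed for it, at 0.50 to 0.55.

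Under the same labels BACH2 and BCL6 parted. BACH2 had 114 and 124 counts with the DMSO label, against 523 and 530 with THZ1, 2.10 higher on the log2 scale (SE 0.114, edgeR adjusted p = 6.93e-11). BCL6 had 37 and 34 counts against 40 and 42, a difference of 0.16 (SE 0.253, edgeR adjusted p = 0.561) that was smaller than its error. SPIB had 77 and 56 counts against 6 and 3. The ratio of CPM was 0.068, with a 95% counting interval of 0.030 to 0.133, and the fitted log2 difference was -3.89 (SE 0.391, edgeR adjusted p = 1.49e-07). EBF1 had 1 count in each library labelled DMSO and 17 in each labelled THZ1, a ratio of 17.04 with a counting interval of 4.37 to 146. PAX5 was not tested, with 2 and 3 counts against 12 and 6, a ratio of 3.61 with an interval of 1.29 to 12.4.

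For 6 members the difference between THZ1 and DMSO was not the same under the JJN3 and the H929 labels, when tested as an interaction over the 8 libraries. Of 9 members that passed the filter over 8 libraries, EBF1 through the H929 THZ1 label only, 4 had a more positive difference under the H929 labels, where 28.1% of 16122 genes did, and 2 a more negative one, where 25.5% did. In units of log2 fold change, H929 labels minus JJN3, the differences were 2.51 for PRDM1 (SE 0.125), 1.73 for POU2AF1 (SE 0.104), 1.52 for IRF4 (SE 0.099) and 0.68 for BACH2 (SE 0.152). They were -2.87 for SPIB (SE 0.454) and -0.78 for BCL6 (SE 0.278). The edgeR adjusted p-values ran from 7.94e-11 for PRDM1 to 0.0222 for BCL6. The BCL6 call was lost with DESeq2 (adjusted p = 0.051), and with edgeR on total counts (adjusted p = 0.0521) or without a filter on low counts (adjusted p = 0.0723). It was also lost when any library but the first JJN3 DMSO or the second JJN3 THZ1 library was left out (edgeR adjusted p of 0.0501 to 0.0768). For the Ikaros factors no difference was called, with values of 0.06 for IKZF1 (SE 0.102, edgeR adjusted p = 0.657) and -0.18 for IKZF3 (SE 0.213, edgeR adjusted p = 0.486). For IKZF3 this depended on 1 library: without the first JJN3 DMSO library the difference was -0.55 (edgeR adjusted p = 0.0161). The fitted value of EBF1 is not given, since both JJN3 groups were at 0. The same H929 libraries and the marker genes given above bear on each of these differences, and their part was not tested.

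With DMSO, 6 of 9 members that passed the filter, EBF1 with 2 counts against 0 among them, were called lower under the H929 label than in JJN3, where 30.7% of the 16122 genes tested were. None was called higher, where 30.8% were, by edgeR with Benjamini-Hochberg adjustment or by DESeq2. IKZF3 was higher by 0.42, which passed the adjusted p but not the limit on the fold. It was beyond that limit, at 0.80, without the first JJN3 DMSO library. The repressors and SPIB were furthest apart, at -2.38 for BCL6, -1.89 for BACH2 and -1.68 for SPIB on the log2 scale. POU2AF1 was at -1.41, PRDM1 at -1.20 and IRF4 at -0.54. The difference of -0.31 for IKZF1 was inside the limit on the fold.

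Between the THZ1 labels the order of the lines turned, at the calling limits, for IRF4 and PRDM1. For the H929 labels an effect of THZ1 and a difference in the source of the cells cannot be told apart here either. Under the H929 label, IRF4 was higher than in JJN3 by 0.98 and PRDM1 by 1.31 on the log2 scale, and POU2AF1 differed by 0.33, inside the limit. EBF1, with 34 counts against 0, was at least 5.55-fold higher, taking 3 counts in each JJN3 library as its floor. It passed the filter only through that label. SPIB (-4.54), BCL6 (-3.16) and BACH2 (-1.20) were again lower. With EBF1, 3 members were called higher, where 31.6% of all genes were, and 3 lower, where 32.3% were. IKZF1 at -0.25 and IKZF3 at 0.24 were not called. Both comparisons between the lines use the libraries that also enter the within-line comparisons, so they are not separate evidence.

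Other genes of the B cell and plasma cell programs were taken from lists of markers, partner factors and relatives. Over all genes tested in JJN3, 21.3% were called lower and 20.6% higher, and the counts of each list stand beside these shares. In JJN3, 6 of the 11 plasma cell markers tested were called lower and none higher, with a median log2 change of -0.61. They included SLAMF7 at -1.65, the immunoglobulin receptor homologue FCRL5 at -1.42, GPRC5D at -1.32 and MZB1, a chaperone of antibody secretion, at -1.05. All of these passed edgeR's test after Benjamini-Hochberg adjustment. At an unadjusted p under 0.05, 7 markers were lower and 3 higher, the secretory genes IGJ (0.27), FKBP11 (0.30) and DERL3 (0.30). Since 9 of the 11 passed the adjusted p, some of these 3 genes missed only the limit on the fold. CD38, by contrast, was at -0.08, and SDC1 at -0.47 was inside the limit on the fold. Among the B cell markers, 5 of the 7 tested were called lower and none higher, also at an unadjusted p under 0.05 in edgeR, with a median of -1.24. These were CD72 at -1.95, CIITA, the master regulator of MHC class II genes, at -1.61, CD79B and MS4A1 (CD20) at -1.24 each, and BLNK at -1.10. CIITA fell from 1213 and 1220 counts to 322 and 374 and CD79B from 300 and 311 to 120 and 105, while CD72, MS4A1 and BLNK had at most 72 counts in a JJN3 library. CD72 (23 and 22 counts with DMSO, 5 and 5 with THZ1) and BLNK (28 and 26, 9 and 13) passed the filter only through DMSO. The filter favoured a call of lower for them, so their calls are no support for a direction of the list.

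Among 19 other B lineage transcription factors tested in JJN3, 6 were called higher and 4 lower, with a median log2 change of 0.18. ID2, an inhibitor of E proteins, rose by 1.39, and POU2F1 (Oct-1), which binds POU2AF1, rose by 0.97. MYB fell from 4757 and 4627 counts to 1669 and 1533, by 1.35 on the log2 scale, and BCL11A fell by 0.87. POU2F2 (Oct-2), the other octamer partner of POU2AF1, fell by 0.54. The partners of SPIB and IRF4 that bind the same composite sites were not read in JJN3: SPI1 (PU.1) had 0 counts in each library, and IRF8 had 0 in 3 libraries and 3 in the other.

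**Figure D4:**
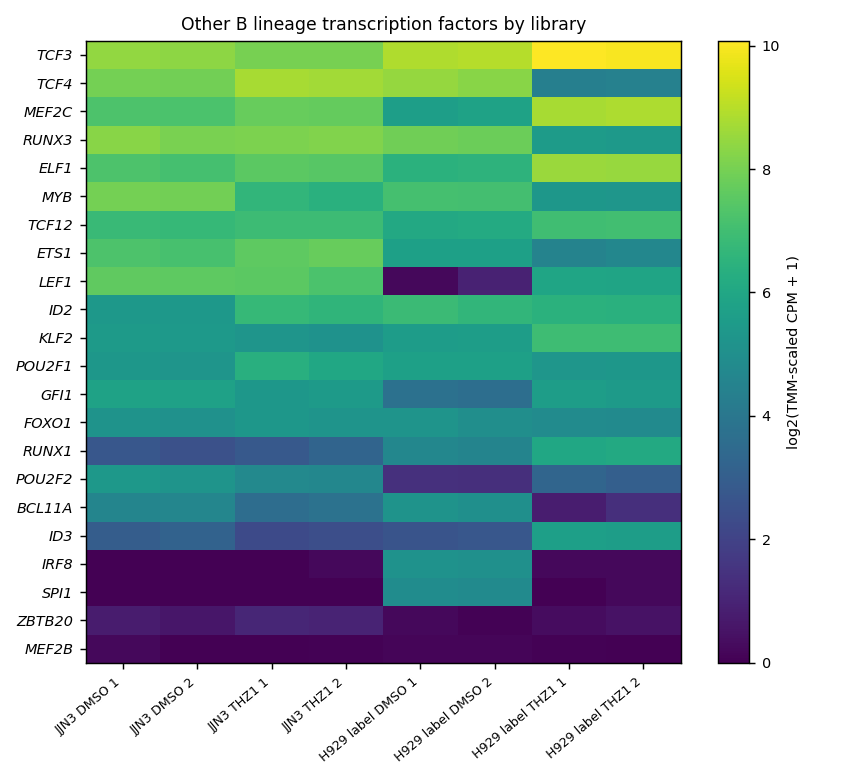
Level of 22 other B lineage transcription factors in the 8 libraries, as log2(TMM-scaled CPM + 1), ordered by their mean. SPI1 and IRF8 are bright in the libraries labelled H929 DMSO and dark elsewhere, LEF1 is dark in those alone, and TCF4 is lowest in those labelled H929 THZ1.

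The change of IRF4 was not shared by its family at the calling limits. Of 6 other IRF genes tested in JJN3 none was called with edgeR. At an unadjusted p under 0.05 there were 4, and of these IRF2 at -0.37, IRF3 at -0.31 and IRF5 at -0.37 passed the adjusted p but not the limit on the fold, while IRF9, with 7 to 20 counts in a library, missed the adjusted p. Of the 10 other Ikaros family and CRL4-CRBN genes, CUL4B alone was called, at 0.91. The adaptor CRBN was at 0.08, and the relatives IKZF2 and IKZF5 were both at 0.49, just inside the limit, beside 0.45 for IKZF1 and 1.33 for IKZF3. Among the 10 partners of BCL6 and BACH2 tested, 5 were called higher, where 20.6% of all genes were, and none lower, also at an unadjusted p under 0.05 in edgeR, with a median of 0.48. The small Maf protein MAFG rose by 1.58 and the BACH2 relative BACH1 by 1.58, followed by MAFF (0.76), the BCL6 corepressor BCOR (0.70) and NCOR1 (0.51). MAFK, the other small Maf partner of BACH2 in the list, was not called. Of 5 markers of other cell types tested, CD3E alone was called, from 36 and 32 counts to 75 and 50.

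**Figure D5:**
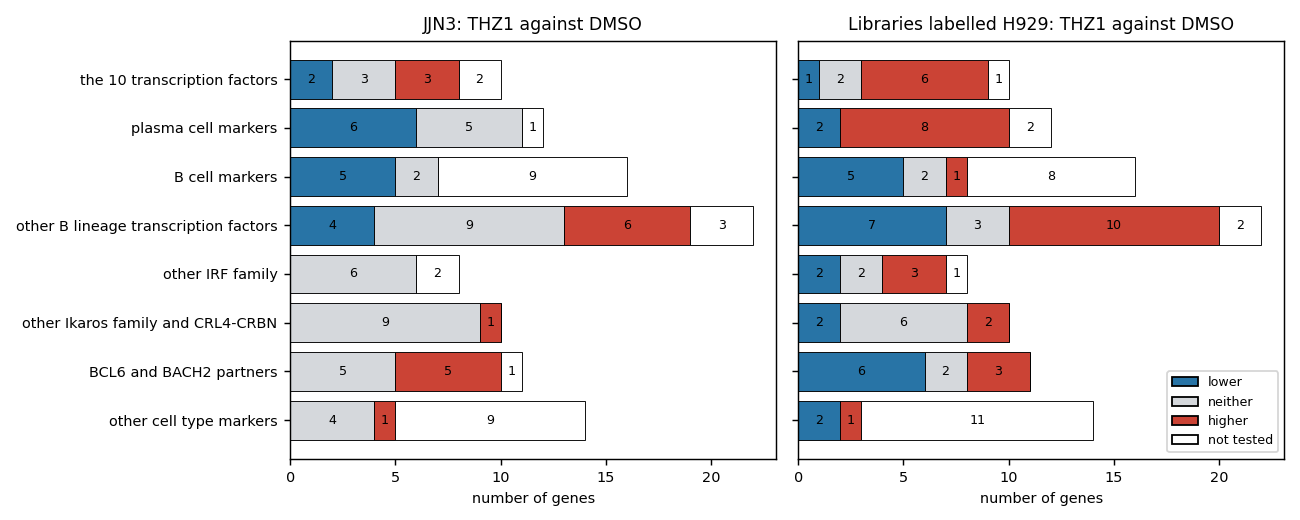
Number of genes of each list called lower (blue), called higher (red), tested without a call (grey) and not tested (white) between THZ1 and DMSO, for JJN3 on the left and the libraries labelled H929 on the right. In JJN3, 6 plasma cell markers and 5 B cell markers are lower and none is higher, whereas under the H929 labels 8 plasma cell markers are higher and 2 lower. Among the B cell markers lower in JJN3, CD72 and BLNK passed the filter only through DMSO.

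Between the H929 labels, 33.1% of all genes tested were called higher and 32.6% lower, which is the background of the counts that follow. There, 8 of 10 plasma cell markers tested were called higher and 2 lower, among them GPRC5D at 4.37 and SLAMF7, which went from 2 and 174 counts to 8948 and 9173. Of 8 B cell markers tested, 5 were called lower and 1 higher, with CIITA at -7.90 and BLNK at -7.25. BLNK (729 and 635 counts against 2 and 7), CD72, VPREB3 and FCRLA passed the filter only through the DMSO label. SPI1 and IRF8, at or near 0 in JJN3, were high under the H929 DMSO label alone. SPI1 went from 546 and 495 counts to 0 and 3, and IRF8 from 632 and 594 to 3 and 3. Of 20 other B lineage factors tested, 10 were called higher and 7 lower, and of 7 other IRF genes 3 were called higher and 2 lower. Of the 10 Ikaros family and CRL4-CRBN genes 2 were called in each direction, with IKZF2 at 2.46 and CUL4B at 0.78. Of the 11 partners of BCL6 and BACH2, 6 were called lower and 3 higher, with TBL1XR1 at -2.26 and MAFF at 2.13. BACH1 (-0.76) and MAFG (-0.80), which rose in JJN3, were lower here, while BACH2 was higher under both.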

How the data were processed

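RNA-seq libraries (single-end reads, 2 per line and treatment) were grouped by their GEO labels. The authors, per the labels and the published methods, aligned the reads to hg19 with STAR 2.5.2a and deposited raw counts per Ensembl gene from featureCounts, without normalization. Their DESeq2 1.12.4 comparison tables hold fold changes and p-values and were not used, except that gene symbols were read from the table of JJN3. Here, counts were tested with edgeR 4.0.16 in R 4.3.3 (TMM, filterByExpr with a minimum count of 10, quasi-likelihood test, Benjamini-Hochberg adjustment), within each line, and over all 8 libraries with 1 coefficient per group for the interaction and for the comparisons between lines. The standard error is the log2 fold change divided by the square root of F. CPM were scaled by TMM over the 8 libraries, and exon lengths and GRCh37 positions came from a GENCODE annotation lifted to that build, which need not be the release the authors counted with. The depth was 17476443 to 19194371 counts per library, and counting intervals (95%, exact) and floors of 3 counts cover counting error only. Biological coefficients of variation were 0.074 in JJN3, 0.043 in the libraries labelled H929 and 0.061 over all 8. Replicate libraries differed by more than sampling noise (chi-square per degree of freedom of 3.36 to 11.3), so none was counted as a duplicate. The alternatives were DESeq2 1.42.0, scaling by its size factors or by library totals, leaving low counts in or keeping genes at 1 CPM in 2 libraries, the replicate number as a block, all 8 libraries in 1 fit, other limits on the fold, and leaving out each library. The code was tested on simulated data. The members, the gene lists and the motifs were chosen with earlier results of these data known. Named genes are all members and, of each list, up to 4 called in JJN3 and up to 2 under the H929 labels by size of change, and marker genes used to check the labels, except that 1 is not reported here. Other genes named were chosen after their values were seen.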

Additional observations from a re-analysis of the deposited data

Results flagged for a closer look

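For 6 of the transcription factors the difference between THZ1 and DMSO was not the same under the JJN3 and the H929 labels, by edgeR's test of the difference itself with Benjamini-Hochberg adjustment over all genes. In log2 fold change, H929 labels minus JJN3, it was 1.52 for IRF4, 2.51 for PRDM1 and 1.73 for POU2AF1. IRF4 moved in opposite directions in 2 of 2 libraries of each group (-0.55 and 0.96), and POU2AF1 rose under the H929 labels (1.51) with a value of -0.21 in JJN3 that did not pass the test. BACH2 was higher under both, by 1.42 and 2.10, a difference of 0.68. SPIB was lower under both, by -1.02 and -3.89, a difference of -2.87, with 6 and 3 counts left under the H929 THZ1 label. BCL6 rose in JJN3 (0.96) with a value of 0.16 under the H929 labels, a difference of -0.78 that missed the threshold under several alternatives. The libraries labelled H929 also differed in EPCAM (2391 and 2249 counts against 1 and 6), CD3E (15 and 26 against 640 and 650) and SPI1 (546 and 495 against 0 and 3), and the part of this in the 6 differences was not tested. Among the other T and NK cell markers, CD3D, CD2 and NKG7 had at most 10 counts in each of those libraries. Groups of 2 libraries were too small for a search for outlying libraries.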

How the results depend on the processing

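Of 522 values of single members under the alternatives, 497 kept their side of the threshold, 16 gained a call and 9 lost one. No called value changed sign. Among the 497, 2 uncalled values did, the differences between lines of IKZF1 (-0.001 without the first JJN3 DMSO library) and IKZF3 (0.14 without the second). The 9 lost calls are the difference between lines for BCL6, so that 1 member had a more negative difference with DESeq2, with total counts, without a filter and beyond a log2 fold change of 1, and 1 to 3 did when a library was left out. Without a limit on the fold, 5 members were called higher in JJN3, and 1 was higher under the H929 label than in JJN3 with DMSO. Beyond a log2 fold change of 1, 1 member (SPIB) was lower in JJN3, and over all genes 1006 were lower and 1397 higher in JJN3 and 3146 lower between the H929 labels. The share of all genes is not given beside each of these counts, and none is read as a result about the members as a group. Leaving out a library put IRF4 between -0.58 and -0.53 and SPIB between -1.12 and -0.94 in JJN3. There PRDM1 ran from 0.40 to 0.58 and IKZF1 from 0.37 to 0.51, across the limit on the fold. Between the H929 labels IKZF1 ran from 0.49 to 0.52. PAX5, tested there at 12 counts in the 1 remaining THZ1 library, was at 2.17. Under the H929 label against JJN3 with DMSO, IKZF3 ran from 0.11 to 0.80. A lone remaining library was assumed to vary like the others. Total counts in place of TMM moved the median of all genes in JJN3 by -0.10, with IRF4 at -0.66 and 3639 genes lower and 2353 higher in place of 2972 and 2877. The adjusted p of POU2AF1 in JJN3 ran from 0.00858 to 0.423 and its change stayed within the limit on the fold. Replicate numbers were not shown to pair the libraries (correlation of deviations 0.007 in JJN3 and -0.029 under the H929 labels, 2 pairs each), and with the replicate number as a block 2 members were called lower and 3 higher in JJN3, with IRF4 at -0.55, and no call of a member changed. PAX5 and EBF1, at 0 to 17 counts, are limited by depth.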
